A study of Mus musculus with 10 samples.

Results

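The genes described here are the autophagy and mitophagy genes of mouse neutrophils, 41 of the 13091 genes that the deposited tables list. They were selected by gene symbol. Every symbol made of Atg and a digit was included, which gave 18 genes, together with 23 named genes of the same pathway, all of which were listed. The RefSeq annotation of GRCm38 holds 19 symbols of the Atg kind, of which Atg4a-ps, a copy of Atg4a, is not among the genes listed in the tables used here.

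RNA was sequenced from neutrophils that had been differentiated in culture from clonal bone marrow progenitors of the 129-SVEV strain, immortalized with an estrogen-dependent HoxB8. The 10 libraries fall into 4 groups. Vim+/+ unstimulated and Vim+/+ with LPS each have 2 labelled biological replicates, numbered 1 and 3. Vim-/- unstimulated and Vim-/- with LPS each have 3. Whether each replicate was a different clonal line is not stated. LPS was given at 25 ng/mL for 1 hour. The sample labels name the genotype of the Vim-/- cells a knockdown, whereas the methods of the study derive these cells from knockout mice, and the progenitor lines of both genotypes carry the HoxB8 transgene and were expanded from single sorted cells. The ages of the mice are not given in the sources used here.

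Each of the 4 tables reports the authors' own comparison of 2 groups, and none holds a value per library. Only the mean normalized count of each gene over the libraries was used, a single value that was the same in all 4 tables for every gene. No difference between genotypes and no response to LPS is therefore given, and the deleted gene Vim was not checked by genotype. No spread between replicates can be attached to any value. The libraries averaged are not named. If they were all 10, the mean takes in 6 Vim-/- and 4 Vim+/+ libraries. A gene that differed between the groups is then represented by a weighted average of them. The values summed to 55507688 over all genes with a median of 907 per gene, and the depth of each library cannot be read from these tables. Fewer cells that express a gene and less of its RNA per cell cannot be told apart in such bulk samples.

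Autophagy is the route by which a cell encloses part of its cytoplasm in a double membrane, the autophagosome, and delivers it to the lysosome for breakdown. A protein kinase complex starts the process, a lipid kinase complex marks the membrane with phosphatidylinositol 3-phosphate, lipid is brought in, and a ubiquitin-like conjugation system attaches proteins of the Atg8 family, known as LC3 and GABARAP, to the growing membrane. Cargo receptors bind both the Atg8 proteins and the material to be removed, and in mitophagy this material is a mitochondrion. Neutrophils depend on autophagy genes during their differentiation and for several of their effector functions.

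The labelled cell type was checked against markers. All 12 neutrophil markers were listed, with mean normalized counts from 11373 for Ly6g to 1290830 for S100a9, which ranked 1 of all genes. Of the eosinophil markers, Prg2 reached 268319 and Epx 142776, both granule proteins, while Siglecf stood at 4599 and Ccr3 at 65.6. The basophil and mast cell protease Cpa3 stood at 26296 and Mcpt8 at 2802, and Fcer1a was not listed. Of the monocyte and macrophage markers, Adgre1 stood at 10073, Csf1r at 3269 and Ccr2 at 1256. The progenitor markers Cd34 and Kit stood at 2564 and 1075, and Flt3 was not listed. The platelet and megakaryocyte markers were Itga2b at 6521, Ppbp at 106 and Pf4 at 38.1. A single B cell marker, Cd79a at 83.8, and a single T cell marker, Cd3d at 250, were listed, and 0 of 3 globin genes. How far cells with granule genes of other lineages contribute to the levels of the autophagy genes was not tested.

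Most of the autophagy and mitophagy genes stood in the upper part of the expressed genes. By counts not divided by transcript length, 38 of the 41 genes had a mean normalized count above the median of all listed genes and 37 had at least 1000. Their median was 3168. The median member lay above 75.6% of all listed genes. Together the 41 genes, 0.313% of the genes listed, held 0.468% of the summed counts, and Sqstm1, Gabarap and Map1lc3b made up 40.0% of the members' sum.

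**Figure D1:**
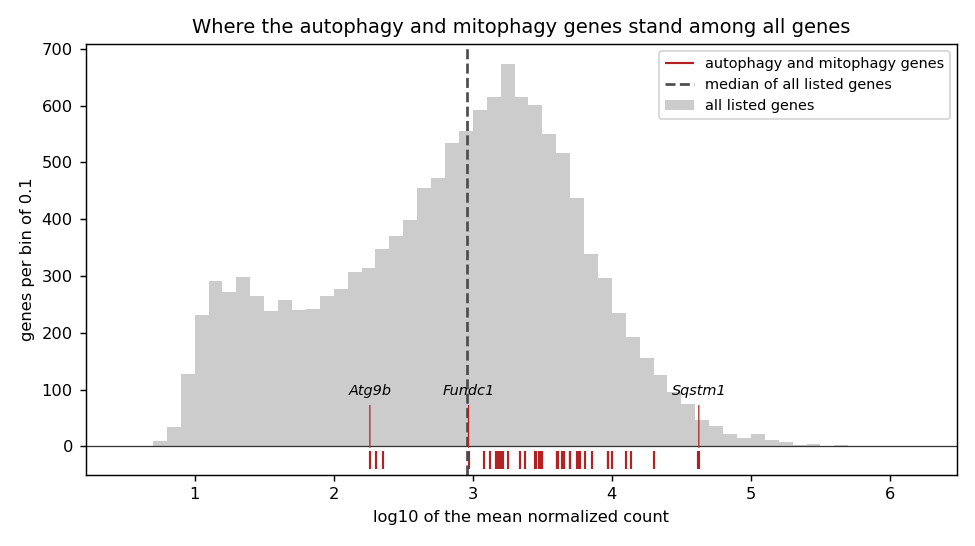
Grey bars count all 13091 listed genes in bins of 0.1 of the log10 mean normalized count, not divided by length, red ticks under the bars mark the 41 autophagy and mitophagy genes, and the dashed line is the median of all listed genes. A group of 3 genes lies well to the left of the median, Fundc1 lies beside it, and the other members lie to its right, up to Sqstm1.

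Counts rise with the length of a transcript, so for the order of the members their counts were divided by the length of the principal transcript in GENCODE M21, in kilobases. This length was found for 12046 of the listed genes (92.0%) and for all 41 members. On this scale the median of all genes was 348 counts per kilobase and that of the members was 1198, and 32 of the 41 members were above the median of all genes. The most abundant were Gabarap at 30822 per kilobase, Sqstm1 at 20712, Map1lc3b at 7916 and Atg3 at 6133. Gabarap lay above 98.8% of the genes with a length, Sqstm1 above 98.2%, Map1lc3b above 95.7% and Atg3 above 94.5%. The least abundant were Atg9b at 46.6 per kilobase, Atg4c at 63.5 and Atg10 at 143, which lay above 18.9%, 22.7% and 33.4% of genes. The order depends on the length used. With the longest transcripts Map1lc3b, at 4844, was below Atg3, at 6062. With the coding length Map1lc3b, at 53448, was above Sqstm1, at 31818, and Bnip3l, at 14437, above Atg3, at 13391. Among the lowest, Atg2b, at 248, and Pik3r4, at 327, were then below Atg10, at 358. With no spread between libraries, neighbours in any such order cannot be told apart either.

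**Figure D2:**
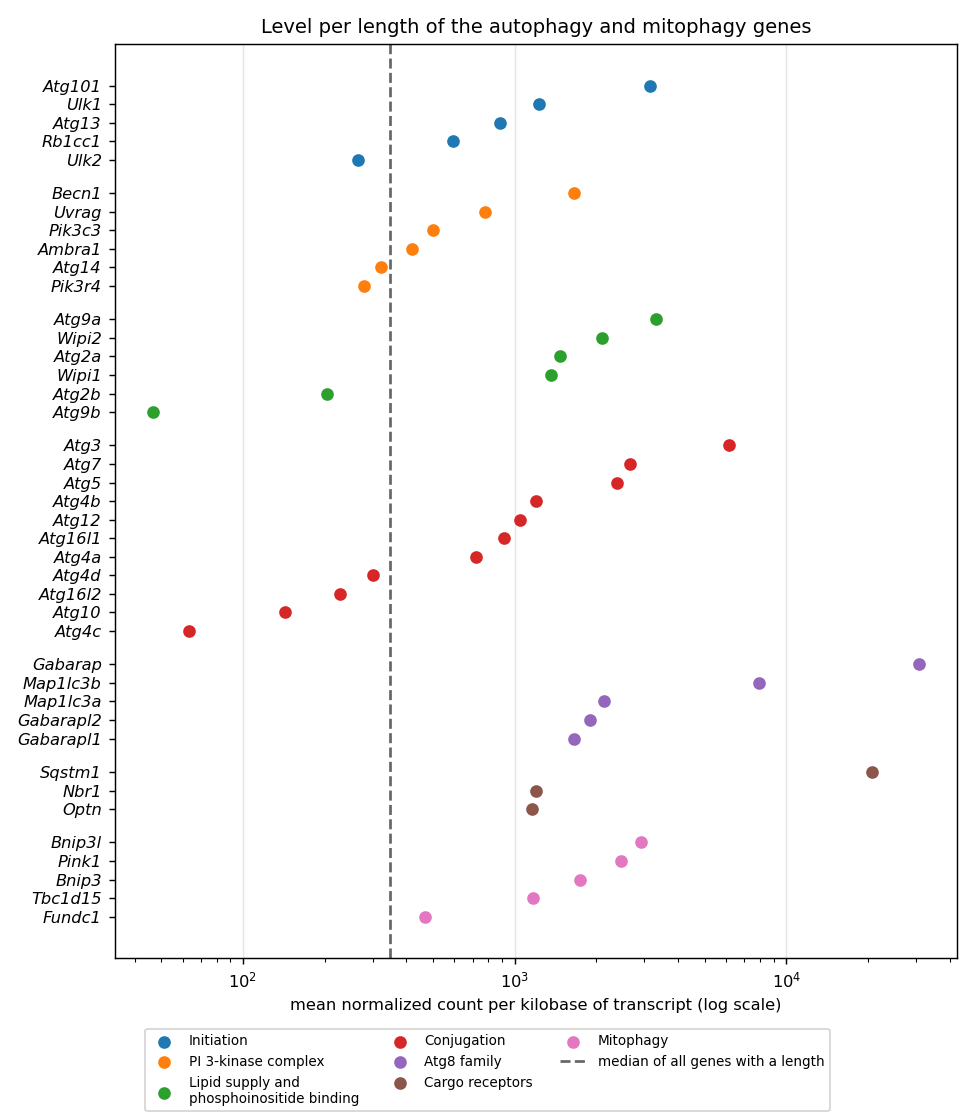
Each point is the authors' mean normalized count of a gene divided by the length of its principal transcript in kilobases, on a log axis. Genes are grouped and coloured by their step in the pathway. The dashed line is the median of all genes with a length, 348 per kilobase. Gabarap and Sqstm1 stand apart on the right, and Atg9b and Atg4c on the left.

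The initiation complex consists of the kinases Ulk1 or Ulk2 with Atg13, Atg101 and the scaffold FIP200, encoded by Rb1cc1. All 5 genes had a mean normalized count above the median of all genes. Per kilobase, Atg101, which stabilizes Atg13, was the highest at 3151, followed by Ulk1 at 1231, Atg13 at 883, Rb1cc1 at 591 and Ulk2 at 266. Ulk2 alone of the 5 lay below the median of all genes on that scale. Rb1cc1, whose transcript has 7607 bases in 24 exons, had a mean normalized count of 4498 before division by length.

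The phosphatidylinositol 3-kinase complex was the lowest step per kilobase. It is built of the lipid kinase Vps34, encoded by Pik3c3, its regulatory subunit Vps15, encoded by Pik3r4, and Beclin 1, encoded by Becn1, with either Atg14, which serves autophagy, or Uvrag, which also serves endosomal traffic. Becn1 stood at 1648 per kilobase, Uvrag at 778, Pik3c3 at 502, the Beclin 1 regulator Ambra1 at 418, Atg14 at 323 and Pik3r4 at 280. Atg14 and Pik3r4 lay below the median of all genes. The median of the 6 genes was 460 per kilobase, 1.32 times that of all genes. Not divided by length, the median was 1905, which is 2.10 times that of all listed genes and 1.82 times that of the genes with a length.

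The genes of lipid supply and phosphoinositide binding spread widely. Atg9a, a lipid scramblase carried on vesicles, stood at 3325 per kilobase, while its paralog Atg9b was the lowest of all members. The lipid transfer proteins Atg2a and Atg2b stood at 1473 and 204 per kilobase. Wipi2, which recruits Atg16l1 to the membrane by binding phosphatidylinositol 3-phosphate, stood at 2096, and Wipi1 at 1358. With their longest transcripts these levels were 794 and 834 per kilobase.

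The conjugation genes held both some of the highest and some of the lowest members. Atg3, the E2-like enzyme that passes Atg8 proteins to lipid, had a mean normalized count of 12615. Atg7, the E1-like enzyme that activates both Atg12 and the Atg8 proteins, had 9982 and 2654 per kilobase. Atg10, the E2-like enzyme for Atg12, had 227 and 143 per kilobase. Atg5, to which Atg12 is joined, stood at 2385 per kilobase and Atg12 at 1046. With the coding length Atg12, at 11788, was above Atg5, at 6798. Atg16l1, which binds the conjugate and places it on the membrane, stood at 912 per kilobase and Atg16l2 at 228. Atg16l1 was 1.94 times Atg16l2 without division by length and 1.99 times with the coding length. Of the cysteine proteases that trim Atg8 proteins and free them from lipid, Atg4b stood at 1198 per kilobase, Atg4a at 719, Atg4d at 301 and Atg4c at 63.5. Of the 11 genes of this step, 7 lay above the median of all genes per kilobase, and the exceptions were Atg4d, Atg16l2, Atg10 and Atg4c.

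All 5 genes of the Atg8 family were well above the median of all genes on both scales. Gabarap, which binds receptors and initiation factors, had a mean normalized count of 41641. Map1lc3b encodes the LC3 protein that is commonly used to follow autophagosomes, and it had 20043. Map1lc3a had 2381, Gabarapl1 had 3003 and Gabarapl2 had 3167. Per kilobase these last 3 stood close together at 2141, 1650 and 1889.

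Among the 3 members grouped as cargo receptors, Sqstm1 stood far above Nbr1 and Optn. It lies at chr11:50199366-50210827 of GRCm38, and its product p62 gathers ubiquitinated proteins and also takes part in NF-κB and NRF2 signalling. Its mean normalized count was 42191. Nbr1, which works together with p62, stood at 1201 per kilobase, and Optn, the gene of optineurin, at 1155. Sqstm1 was 17.9 times Optn on that scale. Of the other selective receptors given below, Ccpg1 was the highest, at 9128 per kilobase.

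All 5 mitophagy genes lay above the median of all genes per kilobase. Bnip3l, which encodes the receptor NIX on the outer mitochondrial membrane, was the highest at 2916 per kilobase and a count of 9442. Pink1, a kinase that marks damaged mitochondria for removal, stood at 2464, and the NIX relative Bnip3 at 1744. Tbc1d15, a GTPase-activating protein for Rab7 at mitochondria, stood at 1173. Fundc1, a receptor of the outer mitochondrial membrane linked to hypoxia, stood at 470 with a count of 932.

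Several steps are served by paralogs, and in several of these families 1 gene stood well above its relatives. Atg9a was 71.3 times Atg9b per kilobase. Atg2a was 7.21 times Atg2b and Ulk1 was 4.64 times Ulk2. Gabarap was 18.7 times Gabarapl1 and 16.3 times Gabarapl2, and these last 2 differed by 1.14-fold. Map1lc3b was 3.70 times Map1lc3a, and from 2.26 to 8.42 times with other lengths or none. Among the proteases, Atg4b was 1.67 times Atg4a (3.16 times without division by length), 3.99 times Atg4d and 18.9 times Atg4c (28.9 times with the coding length). Bnip3l was 1.67 times Bnip3, and 3.08 times without division by length. Wipi2 was 1.54 times Wipi1 with the principal transcripts, but 0.952 times Wipi1 with the longest transcripts, so no order is given for this pair. The order of Atg4a and Atg4d, 2.39-fold apart per kilobase, turned when counts were not divided by length.

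**Figure D3:**
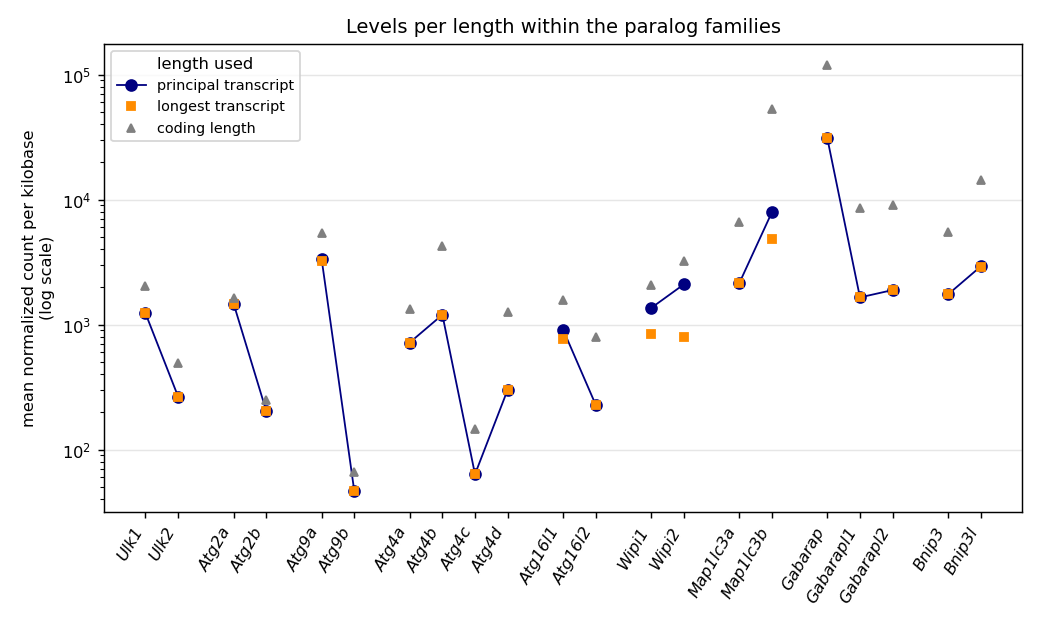
Points give the mean normalized count per kilobase on a log axis for each gene of 9 paralog families, with the principal transcript (circles, joined within a family), the longest transcript (squares) or the coding length alone (triangles) as the length. Atg9a and Gabarap stand far above their relatives with each length, whereas the order of Wipi1 and Wipi2 changes with the longest transcripts.

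Whether reads can separate these relatives was examined in the reference transcripts. Within the 9 families the longest run of identical bases between any pair of transcripts was 17, far below the read length. The coding sequences of Gabarap and Gabarapl1 held 74.6% identical bases over the aligned columns and those of Map1lc3a and Map1lc3b 74.1%. Over the length of the shorter sequence the values were 74.6% and 76.6%, so these pairs are given no order. For the 3 Gabarap genes, the stretch of 60 coding bases in which Gabarapl1 and Gabarapl2 together differ least from Gabarap is shown. It covers coding bases 49 to 108 of their principal transcripts. Differences between Gabarapl1 and Gabarapl2 did not enter this choice. The genes lie on the plus strand of GRCm38, Gabarap at chr11:69991143-69994951, Gabarapl1 at chr6:129533160-129542346 and Gabarapl2 at chr8:111940703-111953612. Capitals mark bases that differ from Gabarap, 14 in Gabarapl1 and 14 in Gabarapl2.
Gabarap: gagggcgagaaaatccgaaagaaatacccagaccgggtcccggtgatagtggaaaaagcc
Gabarapl1: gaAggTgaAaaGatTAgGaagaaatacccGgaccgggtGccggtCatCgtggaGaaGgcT
Gabarapl2: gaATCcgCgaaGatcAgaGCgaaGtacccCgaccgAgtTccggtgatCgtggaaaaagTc

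The differences are scattered through the stretch, so reads of the 3 genes differ even here. Over the whole coding sequence of 351 bases, Gabarapl1 differs from Gabarap at 89 and Gabarapl2 at 135 positions.

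Sequence shared with other annotated genes is another matter. It can be a copy elsewhere in the genome or an overlap of genes at the same place, which the comparison did not separate. Of the 41 principal transcripts, 25 shared no window of 100 bases with any other gene of GENCODE M21 on either strand, 9 shared under 10% of their windows and 7 shared 10% or more. The largest share was that of Atg4a, at chrX:140956907-141164270 on the plus strand, of whose windows 44.2% are also found in Atg4a-ps, at chr3:103643954-103646068 on the minus strand. Their coding sequences of 1188 bases differ at 7 positions, and the first 60 coding bases, shown as an example of sequence that does not separate the genes, hold no difference and so no capitals.
Atg4a: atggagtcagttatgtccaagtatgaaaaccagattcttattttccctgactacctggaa
Atg4a-ps: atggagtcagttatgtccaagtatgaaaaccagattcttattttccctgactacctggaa

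The level of Atg4a is uncertain for this reason. Atg9a shared 43.2% of its windows with Gm29253 on the same strand, and Becn1 shared 41.1% with Cntd1 on the opposite strand, a gene listed at a mean normalized count of 40.9. Bnip3 shared 33.5% with 4 other genes, Bnip3l 17.2% with the pseudogene Bnip3l-ps, which is listed at 106, Gabarapl1 16.3% with 1700101I11Rik, listed at 24.0, and Atg4d 13.4% with Kri1, listed at 4740. Whether counting used strand is not given in the sources used here, so reads from opposite-strand overlaps such as that of Atg4d and Kri1 may have been assigned to either gene or to neither. Sqstm1, Gabarap, Atg3, Atg7 and Atg5 shared no window.

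**Figure D4:**
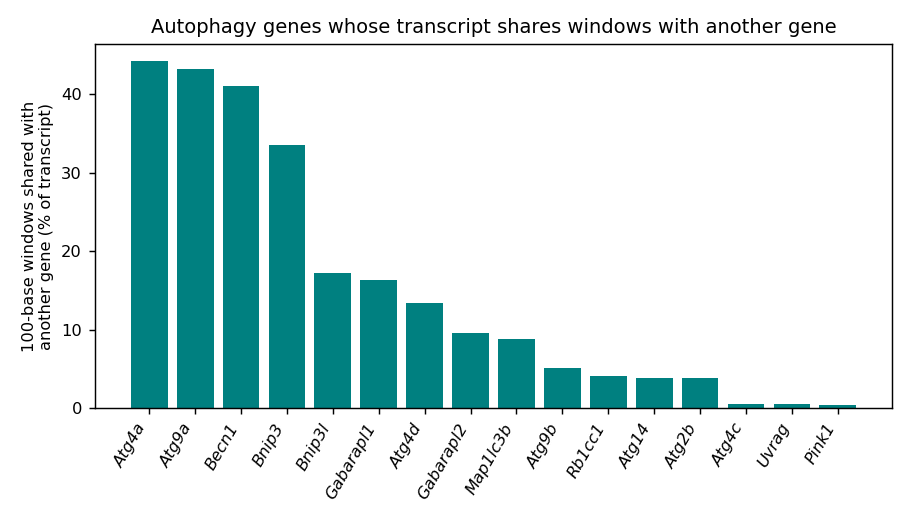
Bars give, for the 16 members with any, the percentage of 100-base windows of the principal transcript that also occur in a transcript of another gene, on either strand. Atg4a, Atg9a and Becn1 are each above 40%, and the members not drawn share none.

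Other genes of the pathway were read from 5 lists. Of 13 genes for nutrient signalling, 12 were listed, with a median of 654 counts per kilobase over the 12, from 5.88 for Deptor, an mTOR inhibitor, to 4158 for Prkag1, a subunit of the energy sensor AMPK. Prkaa2 was not listed. All 5 transcription factors were listed, from Mitf at 127 to Tfe3 at 1584 per kilobase, with a median of 875. All 17 further core and fusion genes were listed, and the 16 with a length had a median of 1104, from Rubcn, a negative regulator, at 60.8 to Rab7, the GTPase of late endosomes, at 15741. The 13 other selective receptors were all listed and stood highest, with a median of 2364 over 12 with a length, from 299 for Wdfy3 to 9128 for Ccpg1, a receptor for the endoplasmic reticulum. The 11 listed genes of ubiquitin-dependent mitophagy had a median of 684, from Mfn1 at 169 to Vdac1 at 2775. The corresponding median of the 41 members was 1198, and that of all genes 348.

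The 41 genes lie on 18 chromosomes. A promoter window, from 250 bases before to 50 after the start in RefSeq on GRCm38.p6, was found for 34 of them. It held the E-box CACGTG, a palindrome bound among others by the Tfeb family that regulates lysosomal and autophagy genes, in 6 genes, Atg14, Atg3, Atg5, Atg7, Bnip3 and Tbc1d15. This is 17.6% of the 34, beside 11.7% of 9778 listed genes with such a window. The form with a T before it and an A after it was found in 1 member (2.94%), beside 2.18% of those genes. A match in this window describes the letters only and does not show a binding site.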

How the data were processed

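Per the labels and the study's methods, polyA RNA of 10 libraries was sequenced as paired reads. After trimming with Cutadapt 4.4, the authors used STAR 2.7.10b for alignment to mm10 and for counting, estimated 4 covariates of unwanted variation and ran DESeq2 1.26.0. The gene annotation and the strand setting are not given in the sources used here. The deposited signal used here is baseMean, the mean over libraries of the counts normalized by the authors. The other columns hold the authors' fold changes, standard errors, test statistics and p-values for 4 comparisons, and none of these was used. No test was therefore made, although tests were planned for the case of values per library. The depth of each library, its counting error and the spread between replicates are unknown from the 4 tables used here.

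The genes were selected by symbol, and any of the 41 could be named, with every listed marker and the highest and lowest gene of each further list. Genes that share sequence with a member were named after their values were seen. The members and lists were chosen with earlier results of these data known. Levels per kilobase used the principal (APPRIS) transcript of GENCODE M21 on GRCm38, which is the same build as mm10, or the longest transcript where none is tagged. Older symbols were matched through RefSeq synonyms. Windows of 100 bases were compared over all transcripts on both strands. Coding sequences were aligned globally with Biopython 1.88 in place of proteins, for which no table was used here. Computations used Python 3.11.15, numpy 2.4.6, pandas 2.3.3 and scipy 1.17.1, were tried on simulated data with known ranks, and figures used matplotlib 3.10.9. The alternatives tried are described in the closing section.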

Additional observations from a re-analysis of the deposited data

How the results depend on the processing

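Values without replicates have no spread, so a value was taken as moved when it changed by over 1.5 times. With the coding length alone the members' median level rose from 1198 to 2081 per kilobase. Relative to the members' median, 15 of the 41 levels moved with the coding length, among them Atg12 from 0.873 to 5.67, Map1lc3b from 6.61 to 25.7 and Gabarap from 25.7 to 57.0, and 3 moved with the longest transcripts, Map1lc3b, Wipi1 and Wipi2. Of the ratios of a step's median to that of all genes, dividing by length, which also limits the median of all genes to those with a length, moved initiation from 4.41 to 2.54, the phosphatidylinositol 3-kinase complex from 2.10 to 1.32, the Atg8 family from 3.49 to 6.16 and the cargo receptors from 6.34 to 3.45. With genes limited in the same way but not divided, also tried later, these ratios were 3.83, 1.82, 3.03 and 5.51, so the phosphatidylinositol 3-kinase complex moved by over 1.5 times only under both changes together. Without members that share 10% or more of their windows, which was tried only once the data had been examined, conjugation moved from 3.15 to 5.50 and the Atg8 family from 3.49 to 12.8. All these ratios stayed above 1. With no division by length, Atg4a over Atg4d reversed to 0.885, Atg4b over Atg4a became 3.16, Atg4d over Atg4c 8.86, Atg16l1 over Atg16l2 1.94, Map1lc3b over Map1lc3a 8.42 and Bnip3l over Bnip3 3.08. With the coding length, also added afterwards for paralogs, Atg4b over Atg4a became 3.18, Atg4a over Atg4d 1.06, Atg4b over Atg4c 28.9, Atg4d over Atg4c 8.56, Atg16l1 over Atg16l2 1.99, Map1lc3b over Map1lc3a 8.15 and Bnip3l over Bnip3 2.65. With the longest transcripts, Wipi2 over Wipi1 reversed to 0.952 and Map1lc3b over Map1lc3a became 2.26. The median member lay above 75.6% of listed genes by count, 69.1% of those with a count of at least 100 and 75.6% per kilobase, and 77.8% without members that share 10% or more of their windows. Protein identity was planned and not run, and coding sequences were aligned in its place. No paired analysis was possible because the tables hold no value per library and no result comes from a test, and for the same reason no replicate could be left out. The unknown depth of the libraries limits what the lowest members, such as Atg9b and Atg4c, can show.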
